A study of Mus musculus with 2 samples.

Results

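The conjugating enzymes of drug metabolism were examined in messenger RNA from mouse kidney after acute kidney injury (AKI). Members were taken by gene symbol as every listed gene of the *Ugt*, *Sult*, *Gst*, *Mgst*, *Ephx* and *Ces* families. The rule found 62 genes of the 19829 listed, of which 22 were *Gst*, 16 *Ugt*, 12 *Ces*, 6 *Sult*, 4 *Ephx* and 2 *Mgst* genes. Genes of these families without a row in the table were not analysed here, and 2 members, *Gstm2-ps1* and *Ces2d-ps*, are annotated as pseudogenes.

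Drug metabolism is commonly described as a chain in which a foreign compound is first oxidised or hydrolysed and then joined to a polar group. UDP-glucuronosyltransferases (Ugt) attach glucuronic acid, sulfotransferases (Sult) attach sulfate from the donor PAPS, and glutathione S-transferases (Gst, and the membrane-bound Mgst) attach glutathione. Carboxylesterases (Ces) and epoxide hydrolases (Ephx) are hydrolases, so the rule also holds enzymes that prepare a compound for conjugation. In the kidney the proximal tubule carries much of this activity, and it passes the conjugates to the urine. Some members act mainly on the body's own compounds, such as *Ugt8a*, which builds galactosylceramide, and *Gstz1*, which works in tyrosine breakdown.

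The study compared 2 libraries of whole kidney, 1 for each genotype, named WT+AKI and TG+AKI and called the WT and TG libraries below. WT mice were control littermates, and TG mice overexpressed *Inmt*, the gene of indolethylamine N-methyltransferase, in proximal tubules. Per the study's methods both were male C57BL/6 mice that received high-dose voclosporin, a calcineurin inhibitor, at 30 mg/kg intraperitoneally each day for 2 weeks from 8 weeks of age. Both underwent 30 min of bilateral renal ischemia at 14 weeks and, per the methods, were killed 48 h after it, whereas a figure legend for these groups gives an earlier time. The treatment field of both samples states no treatment, the series design does name voclosporin, and the title of the TG sample also calls the mice a conditional knockout. The promoter that drives the transgene and the number of mice behind each library are not given in the sources used here. The comparison asked how the kidney transcripts of the genotypes differed after the same drug and injury.

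With 1 library per group there was no replicate. No difference could therefore be set against a spread between mice, and no p-value is given. Values are the deposited normalized values, which are reads per 1000000 of the scaled library. The value of 1 read was 0.0236 in the WT library and 0.0302 in the TG library. Ratios are TG over WT and carry exact 95% Clopper-Pearson confidence intervals (CI) from the reads, which cover counting error only. A gene was compared when its value was at least 1 in at least 1 library, and it was counted as higher or lower at a difference of at least 2-fold.

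The libraries held 38542764 reads (WT) and 36427421 reads (TG). *Inmt* was at 10.4 in the WT library and 402.8 in the TG library, 38.5-fold higher (95% CI 35.1 to 42.5), which matched the genotype labels. The state of the tubules differed between the libraries as well. All 10 proximal tubule markers were above a ratio of 1, with a summed value of 7720 in the WT library and 32500 in the TG library, and the 4 markers of its S3 segment summed to 167 and 1000. Sums of other tubule segments were higher in the TG library too. Those of the distal convoluted tubule were 187 and 678, of the thick ascending limb 1890 and 3110, and of the collecting duct 301 and 422. Podocyte markers summed to 423 and 454. All 6 markers of injured tubule were below 1, with a summed value of 1890 in the WT library and 25.2 in the TG library. Macrophage markers summed to 124 and 56.3, stromal markers to 432 and 188, and endothelial markers to 364 and 340. In bulk tissue, fewer cells of a type and less RNA per cell cannot be told apart in any result below. The part of these markers in the differences among conjugating enzymes was not tested.

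Across the families, 57 of the 62 members were compared. Of these, 13 (22.8%) were higher in the TG library, where 7.35% of all 14997 genes compared were higher, and 11 (19.3%) were lower, where 11.0% of all genes were lower. The other 33 stayed within 2-fold. Members therefore crossed the 2-fold line in both directions, and their median log2 ratio was 0.03 beside -0.02 for all genes. The interval of the ratio included 1 for 8 members. With the minimum value of 1 required in both libraries, 11 of 52 members were higher and 9 were lower, beside 5.82% and 8.03% of 13791 genes. This stricter filter was chosen after the data were seen, and it left out *Ces2f*, *Ces2h*, *Gstp3*, *Ugt2a3* and *Ephx3*. When the columns were scaled to equal totals, which moved the median of all genes by -0.28 on the log2 scale, 13 members were higher and 14 lower, beside 4.75% and 16.1% of 15042 genes. On that scaling the share of higher among all called genes was 22.8% rather than 40.1%, and among called members 48.1% rather than 54.2%.

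The calls fell unevenly over the subfamilies. All 13 higher members lay in the *Ugt2*, *Ugt3*, *Ugt8*, *Ces1*, *Ces2* and *Sult1* groups, and none of the 21 *Gst* genes compared was among them. The 11 lower members were 3 *Ugt1a*, 4 *Ces2*, 3 *Gst* genes and *Ephx1*. Summed over members per kb of the longest annotated transcript, a scale on which levels of different genes can be set side by side, the *Ugt* family went from 528.3 in the WT library to 1517 in the TG library, a ratio of 2.87. The *Ces* family summed to 416.6 and 721.5 on this scale, and the *Sult* family to 484.3 and 682.3. Sums for *Gst* (1714 and 1504), *Mgst* (185.5 and 158.4) and *Ephx* (344.5 and 230.1) were lower in the TG library. All members together took 0.709% of the reads in the WT library and 0.854% in the TG library.

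**Figure D1:**
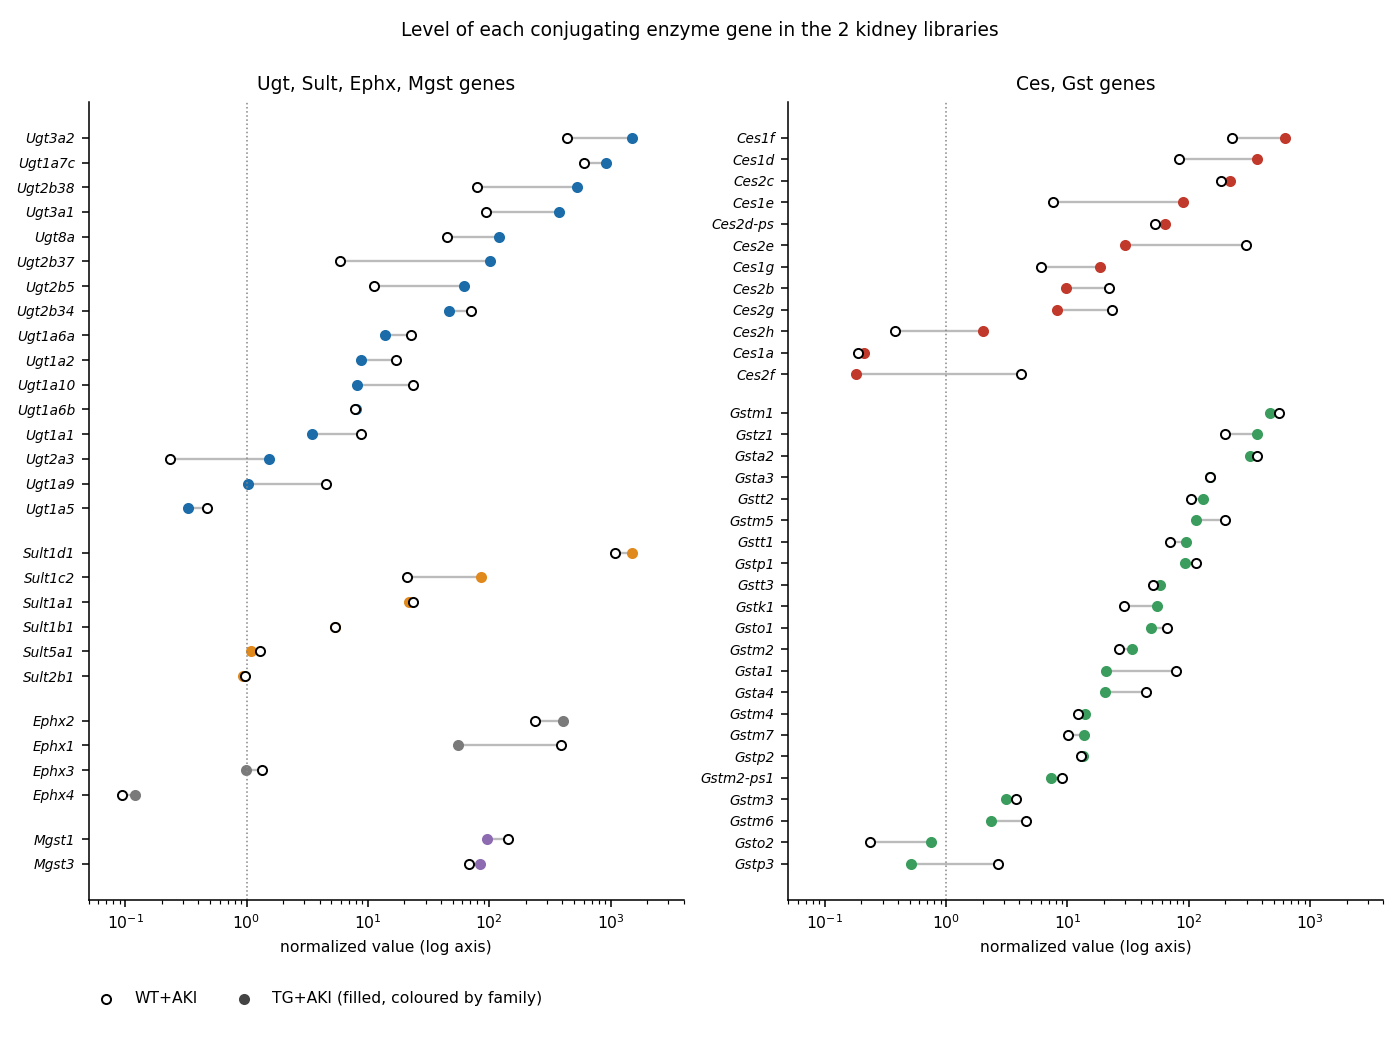
Normalized value (log axis) of each of the 62 members in WT+AKI (open circles) and TG+AKI (filled circles, coloured by family), ordered within family by level, with a dotted line at the minimum value of 1. The filled circle lies on the right for the *Ugt2* genes other than *Ugt2b34* and for the *Ugt3* and *Ces1* genes (by little for *Ces1a*), whereas *Ces2e*, *Ephx1* and *Gsta1* have it on the left.

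Among the glucuronosyltransferases, the *Ugt2* genes showed the widest differences. They lie in a cluster on chromosome 5 (chr5:86889770-87569006, GRCm38) that also holds *Sult1b1* and *Sult1d1*. *Ugt2b* enzymes act on steroids, bile acids and many drugs. *Ugt2b37* (Gene ID 112417) was at 5.85 in the WT library (248 reads) and 102 in the TG library (3387 reads), 17.5-fold higher (95% CI 15.4 to 20.0). *Ugt2b38* (100559) was at 79.9 (3389 reads) and 531 (17577 reads), 6.64-fold higher (6.40 to 6.89). *Ugt2b5* (22238) was at 11.2 and 62.3, 5.56-fold higher (5.03 to 6.16). These 3 are close relatives, and 24.2% of the 100-base words of *Ugt2b38* and 24.7% of those of *Ugt2b5* also occur in transcripts of other genes of the group, so their separate values are uncertain. For *Ugt2b37* the share was 1.06%. *Ugt2a3* was at 0.236 (10 reads) and 1.54 (51 reads), 6.53-fold higher (3.28 to 14.4), and it passed the filter through the TG library alone. *Ugt2b34* (100727), at the edge of the same cluster, went the other way, with 71.2 (3018 reads) in the WT library and 46.2 (1529 reads) in the TG library, a ratio of 0.649 (0.610 to 0.690). Of the 5 *Ugt2* genes, 4 (80%, beside 7.35% of all genes) were thus higher and *Ugt2b34* was within 2-fold. The sum per kb of the 5 was 68.0 and 379.6.

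The 3 *Ugt2b* genes with the high ratios also have alike promoters. In the RefSeq promoter windows of GRCm38.p6, which run from 250 bases before the gene start to 50 after it, they share an unbroken run of 62 bases that occurs in 3 of 27025 promoters, those of these genes. The run was looked for after the values were seen. It is shown in capitals within 98 bases of each promoter, all on the minus strand, at chr5:87140341-87140438 for *Ugt2b5*, chr5:87254806-87254903 for *Ugt2b37* and chr5:87424207-87424304 for *Ugt2b38*.
Ugt2b5: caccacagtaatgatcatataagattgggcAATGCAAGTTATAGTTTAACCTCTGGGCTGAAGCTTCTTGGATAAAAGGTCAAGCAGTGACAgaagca
Ugt2b37: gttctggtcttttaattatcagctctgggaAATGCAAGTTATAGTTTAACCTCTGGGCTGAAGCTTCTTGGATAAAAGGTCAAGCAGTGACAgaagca
Ugt2b38: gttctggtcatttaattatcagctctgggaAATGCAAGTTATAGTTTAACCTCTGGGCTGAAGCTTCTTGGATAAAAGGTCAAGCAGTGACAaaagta
Over the 250 bases before the start, *Ugt2b37* and *Ugt2b38* were 84.8% identical, *Ugt2b5* and *Ugt2b38* 81.5%, and *Ugt2b5* and *Ugt2b37* 72.6%. The promoter of *Ugt2b34*, the *Ugt2b* gene with a ratio below 1, was not aligned with these 3. Whether the likeness sets the 3 apart from it was therefore not tested. Likeness of sequence is given as a description and names no factor that binds there.

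The *Ugt3* pair on chromosome 15 (chr15:9279822-9370955) was higher as well. Enzymes of this subfamily use sugar donors other than UDP-glucuronic acid. *Ugt3a2* (223337) was at 438 in the WT library (18572 reads) and 1496 in the TG library (49541 reads), 3.42-fold higher (3.36 to 3.47). *Ugt3a1* (105887) was at 93.2 and 375, 4.02-fold higher (3.88 to 4.17). Neither shares 100-base words with another gene. Per kb, *Ugt3a2* was the most abundant *Ugt* transcript in both libraries, with 35.6% of the family's sum in the WT library and 42.3% in the TG library. In the WT library *Ugt1a7c* was close behind, with 34.9%. Its value not divided by length, 608, was above the 438 of *Ugt3a2*, so the rank in the WT library depends on the division. *Ugt8a* (22239), on chromosome 3 (chr3:125865272-125938682), was at 44.9 (1902 reads) and 119 (3959 reads), 2.67-fold higher (2.52 to 2.82).

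The *Ugt1a* genes behaved differently from the *Ugt2* and *Ugt3* genes. They lie at one locus on chromosome 1 (chr1:88055411-88220002), where each has a first exon of its own and the remaining exons are common to all. Between 50.4% and 70.9% of the 100-base words of each of the 8 members occur in another gene, and how reads in the common exons were assigned is not given in the sources used here, so all *Ugt1a* values are uncertain. *Ugt1a7c* (394432) held most of the signal, at 184 of 218.7 per kb in the WT library and 279 of 296.5 in the TG library. Its value was 608 in the WT library (25775 reads) and 922 in the TG library (30529 reads), a ratio of 1.52 (1.49 to 1.54). *Ugt1a10* was at 23.5 (998 reads) and 8.06 (267 reads), 2.92-fold lower (2.55 to 3.35). *Ugt1a1*, which encodes the enzyme that conjugates bilirubin, was at 8.77 (372 reads) and 3.44 (114 reads), 2.55-fold lower (2.06 to 3.17). *Ugt1a9* was at 4.48 (190 reads) and 1.03 (34 reads), 4.37-fold lower (3.02 to 6.49). On the opposite strand, *Gm20528* overlaps 41.5% of the exonic bases of *Ugt1a1* and 23.6% of those of *Ugt1a10*. For the other *Ugt1a* genes the overlap was 9.14% to 18.0%. Whether counting used the strand is not given in the sources used here.
The remaining *Ugt1a* genes were within 2-fold. *Ugt1a2* was at 17.2 and 8.76, a ratio of 0.510 (0.444 to 0.585), and its interval spans the 2-fold line. *Ugt1a6a*, of the phenol-conjugating type, was at 22.5 and 13.9, and *Ugt1a6b* was at 7.76 and 7.94, a ratio of 1.02 (0.867 to 1.21). *Ugt1a5* was below the minimum in both libraries. Of the 7 compared, 3 (42.9%, beside 11.0% of all genes) were lower and none higher (beside 7.35%), and 2 had a ratio above 1. Since *Ugt1a7c* carries the locus, the sum per kb of the 8 was nevertheless 218.7 in the WT library and 296.5 in the TG library. The share of *Ugt1a7c* in the family's sum went from 34.9% to 18.4% as the *Ugt2* and *Ugt3* genes took more of it.

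**Figure D2:**
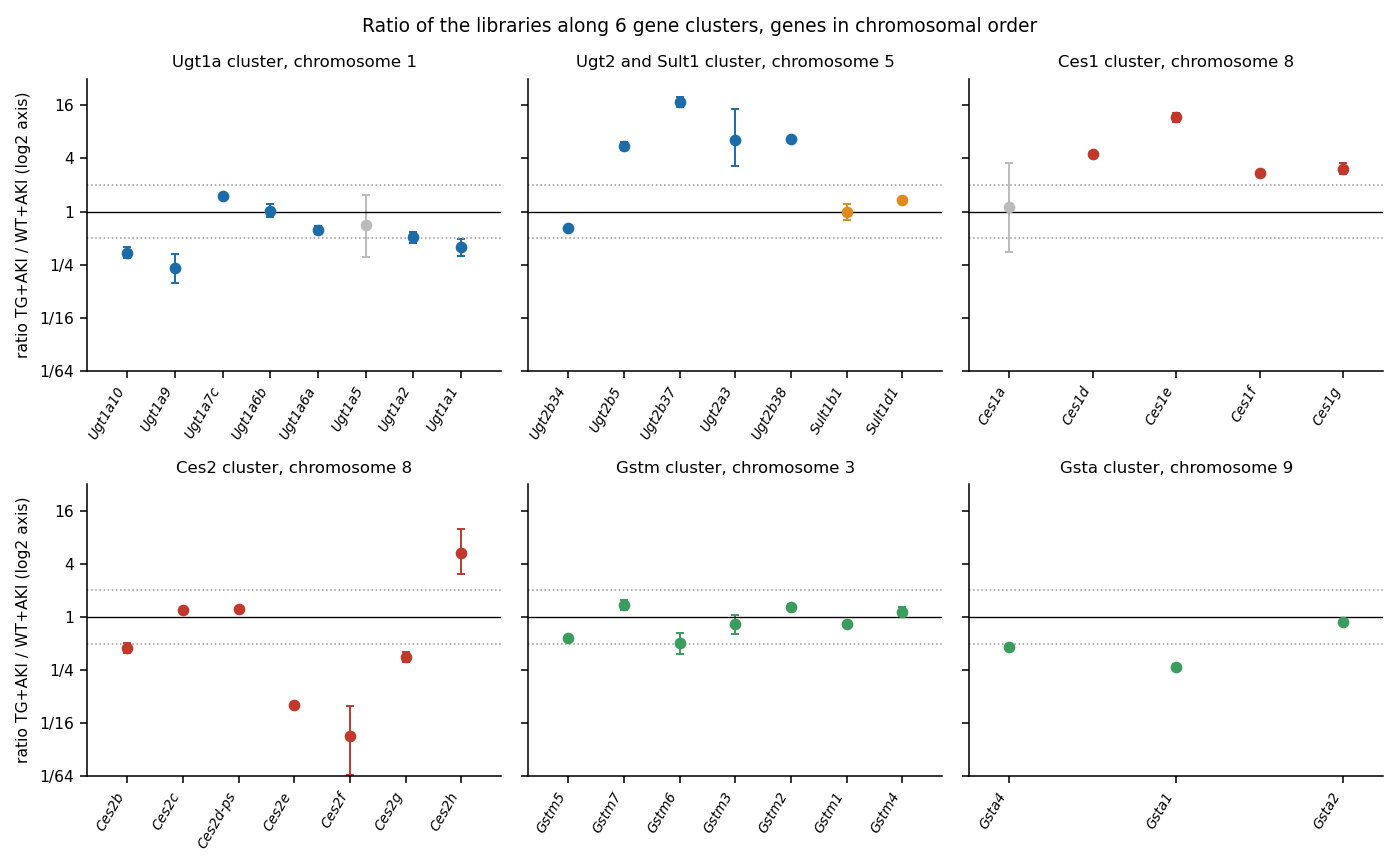
Ratio of TG+AKI to WT+AKI (log2 axis) for members of 6 gene clusters in chromosomal order, with bars for the exact 95% confidence interval from the reads, dotted lines at 2-fold and grey points for genes below the minimum value. The 4 *Ces1* genes compared lie above the upper dotted line, the *Ces2* genes lie on both sides, and the 7 *Gstm* genes of the cluster lie between the lines.

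Promoters were also searched on both strands for letters that nuclear factors of liver and kidney are known to prefer. A promoter was held for 52 of the 62 members and for 14 of the *Ugt* genes. The full HNF1 site (GTTAAT, any base, ATTAAC) was in none of the 52, and in 3 of the 27025 promoters (0.0111%). Its first part, GTTAAT, which is also part of the full site, was in 9 members (17.3%) beside 8.24% of all promoters, and 6 of the 9 were *Ugt* genes. The 6 did not move one way, since *Ugt3a1* and *Ugt2a3* were higher, *Ugt1a1*, *Ugt1a9* and *Ugt1a10* were lower, and *Ugt1a6a* was within 2-fold. The reverse complement of GTTAAT is shown in capitals for 1 gene with a high ratio, on the gene's own strand (chr15:9279690-9279727).
Ugt3a1: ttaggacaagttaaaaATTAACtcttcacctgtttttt
The HNF4 letters CAAAGTCCA were in *Sult1b1* alone (1.92% of the 52, beside 0.555% of all promoters), and the xenobiotic response element TNGCGTG was in *Gsta2*, *Sult1d1* and *Ugt1a5* (5.77% beside 5.84%). A match is a description of letters and does not show a site in use.

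The sulfotransferases were led by *Sult1d1* (53315), which conjugates catecholamines and other phenols. It was at 1096 in the WT library (46468 reads) and 1494 in the TG library (49470 reads), a ratio of 1.36 (1.35 to 1.38), and it made up 93.5% and 90.5% of the family's sum per kb. *Sult1c2* (69083), at chr17:53829637-53845958, was the only member of the family past 2-fold, at 21.1 (894 reads) and 85.2 (2822 reads), 4.04-fold higher (3.75 to 4.36). The other sulfotransferases were close to a ratio of 1. *Sult1a1*, the phenol sulfotransferase, was at 23.4 and 21.9, a ratio of 0.939 (0.852 to 1.03). *Sult1b1* and *Sult5a1* had values between 1.09 and 5.35 with intervals that include 1, and *Sult2b1*, a sulfotransferase of sterols, was below the minimum in both libraries.

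The carboxylesterases, which cleave ester and amide drugs as well as lipid esters, split by subfamily. The *Ces1* genes on chromosome 8 (chr8:93020214-93337209) were all higher where compared, beside 7.35% of all genes. *Ces1e* (13897), once called egasyn, which holds beta-glucuronidase in the endoplasmic reticulum, was at 7.62 in the WT library (323 reads) and 89.3 in the TG library (2957 reads), 11.7-fold higher (10.4 to 13.2). *Ces1d* (104158), which also hydrolyses triacylglycerol, was at 82.4 (3492 reads) and 367 (12147 reads), 4.45-fold higher (4.29 to 4.63). *Ces1f* (234564) was at 228 (9668 reads) and 617 (20437 reads), 2.71-fold higher (2.64 to 2.77). *Ces1g* was at 6.09 (258 reads) and 18.7 (619 reads), 3.07-fold higher (2.65 to 3.57). None of these 4 shares 100-base words with another gene. The fifth, *Ces1a*, was below the minimum in both libraries. Their summed level per kb was 165.8 in the WT library and 554.5 in the TG library.

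The *Ces2* genes lie further along the same chromosome (chr8:104828494-105020410), and 4 of the 7 (57.1%, beside 11.0% of all genes) were lower. *Ces2e* (234673) was at 297 in the WT library (12606 reads) and 29.7 in the TG library (984 reads), 10.01-fold lower (9.38 to 10.7). *Ces2f* was at 4.10 (174 reads) and 0.181 (6 reads), 22.7-fold lower (10.2 to 62.6), a value that rests on 6 reads in the TG library. This gene passed the filter through the WT library alone. *Ces2g* was at 23.5 (996 reads) and 8.24 (273 reads), 2.85-fold lower (2.49 to 3.27). *Ces2b* was at 21.9 (927 reads) and 9.69 (321 reads), 2.26-fold lower (1.99 to 2.57).
The cluster was not uniform. *Ces2h*, its last gene, was at 0.377 (16 reads) and 2.02 (67 reads), 5.36-fold higher (3.07 to 9.91). It passed the filter through the TG library alone, and its log2 ratio of 2.42 was 1.13 with pseudocount 1. *Ces2c* (234671) was at 183 and 218, a ratio of 1.19 (1.15 to 1.23) that falls below 1 when the columns are scaled to equal totals. The pseudogene *Ces2d-ps* was at 52.9 and 64.3, but 57.0% of its words and 13.6% of those of *Ces2c* occur in other genes, *Gm8798* among them. Within the family, *Ces2e* went from 26.4% of the sum per kb to 1.53%, whereas *Ces1f* went from 28.4% to 44.4% and *Ces1d* from 9.87% to 25.4%.

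**Figure D3:**
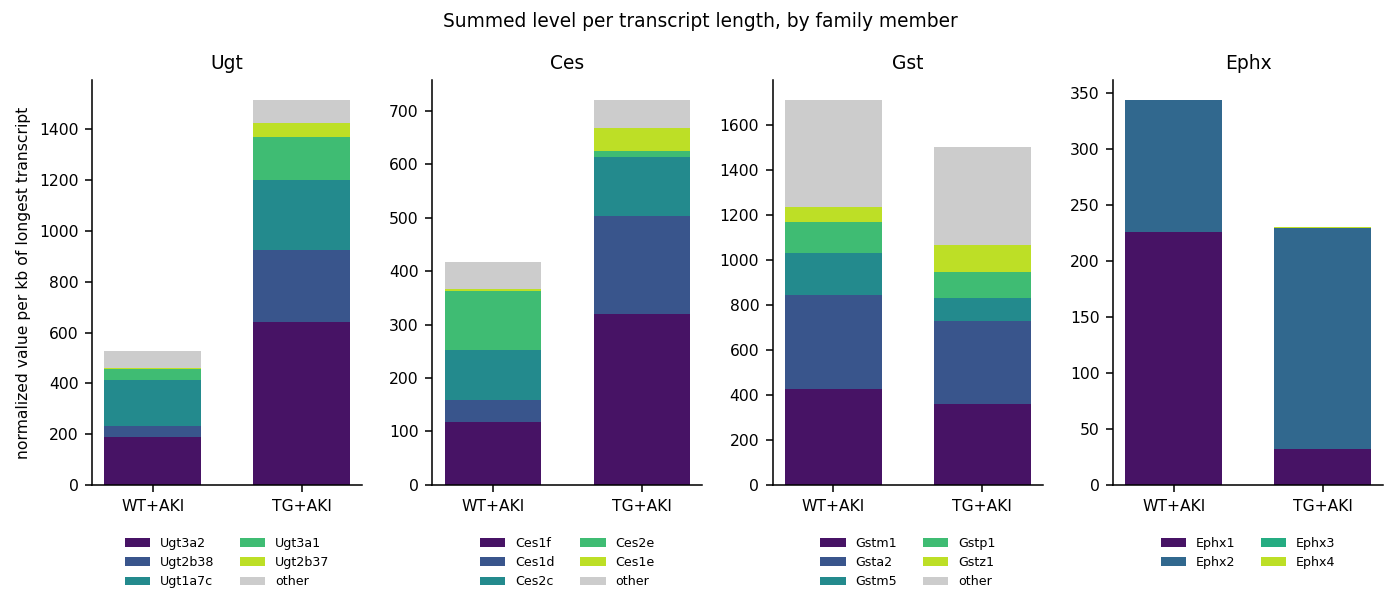
Sum of normalized values per kb of longest transcript for the *Ugt*, *Ces*, *Gst* and *Ephx* families in WT+AKI and TG+AKI, stacked by the most abundant members with the rest in grey (each panel has its own axis from 0). The *Ugt* bar is 2.87 times as tall in TG+AKI, and in the *Ephx* panel *Ephx1* makes up 65.6% of the WT+AKI bar and 13.9% of the TG+AKI bar.

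The leading epoxide hydrolase differed between the libraries. *Ephx1* (13849; chr1:180989556-181017569), the microsomal enzyme that opens epoxides of drugs and aromatic compounds, was at 393 in the WT library (16685 reads) and 55.5 in the TG library (1838 reads), 7.09-fold lower (6.76 to 7.45). *Ephx2* (13850; chr14:66084372-66124522), the soluble enzyme that acts on epoxides of fatty acids, was at 240 in the WT library (10168 reads) and 402 in the TG library (13327 reads), a ratio of 1.68 (1.64 to 1.72). *Ephx2* thus held 34.2% of the family's sum per kb in the WT library and 85.9% in the TG library. *Ephx3* was at 1.34 and 0.997 with an interval that includes 1, and *Ephx4* was below the minimum in both libraries.

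Most glutathione S-transferases were within 2-fold. Of the 21 compared, 18 were within it, 3 (14.3%) were lower, a share near the 11.0% of all genes, and none was higher, beside 7.35% of all genes. Their median log2 ratio was -0.19, and it was 0.06 with a filter of 10. The alpha class, which handles steroids and lipid peroxides, held 2 of the lower members. *Gsta1* (14857) was at 77.7 in the WT library (3295 reads) and 20.9 in the TG library (692 reads), 3.72-fold lower (3.43 to 4.04). *Gsta4* (14860), which conjugates the lipid peroxidation product 4-hydroxynonenal, was at 44.5 (1885 reads) and 20.3 (671 reads), 2.19-fold lower (2.01 to 2.40). *Gsta2* was at 363 and 319, a ratio of 0.878 (0.856 to 0.8996). *Gsta3*, on chromosome 1 and not in the cluster of the other 3 (chr9:78191966-78347192), was at 150.3 and 150.9.
The value of *Gsta1* is uncertain, since 80.6% of its words occur in *Gsta2*, *Gm3776* or *Gm10639*. That of *Gsta2* is uncertain as well, with 28.4% of its words in *Gsta1*, *Gm10639* or *Gm3776*. The neighbour *Gm3776* was at 61.2 and 6.82, a ratio of 0.112 (0.0969 to 0.128), and *Gm10639* at 42.5 and 28.0. Thus the copies next to *Gsta1* were below 1 as well, by different amounts. The promoters of *Gsta1* and *Gsta2* share a run of 29 bases, in capitals, that *Gm3776* also holds (chr9:78230521-78230609, plus strand, and chr9:78347208-78347296, minus strand, GRCm38.p6). This pair was likewise chosen after the values were seen.
Gsta1: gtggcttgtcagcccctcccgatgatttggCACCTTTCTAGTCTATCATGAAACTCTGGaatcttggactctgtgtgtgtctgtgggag
Gsta2: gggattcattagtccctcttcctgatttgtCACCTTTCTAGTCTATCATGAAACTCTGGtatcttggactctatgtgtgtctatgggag
Over the 250 bases before the start the pair was 70.5% identical, yet the genes were 3.72-fold lower and within 2-fold, respectively. Both values are uncertain, since the genes share words.

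The mu class, another group of cytosolic transferases for reactive drugs, had no call. All 8 *Gstm* genes were within 2-fold with the deposited scaling, although *Gstm5* and *Gstm6* pass 2-fold lower when the columns are scaled to equal totals, and their sum per kb was 672.8 in the WT library and 532.6 in the TG library. *Gstm1* (14862) was at 553 in the WT library and 466 in the TG library, a ratio of 0.843 (0.826 to 0.861). Per kb it and *Gsta2* were the main *Gst* transcripts, with 25.0% and 24.4% of the family's sum in the WT library and 24.0% and 24.4% in the TG library. *Gstm5* was at 200 (8461 reads) and 114 (3787 reads), a ratio of 0.573 (0.551 to 0.596). An antisense gene, *4933431E20Rik*, overlaps 13.9% of its exonic bases and was at 28.3 and 40.6. *Gstm2* was at 26.5 and 34.2, *Gstm4* at 12.1 and 13.9, and *Gstm7* at 10.02 and 13.6, which puts 3 members above 1, although that of *Gstm4* falls below 1 with equal totals. *Gstm6* was at 4.58 and 2.33, a ratio of 0.508 (0.385 to 0.665), so its interval spans the 2-fold line. *Gstm3* and *Gstm2-ps1* had values between 3.11 and 9.03.

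Other classes of glutathione transferase were also mostly within 2-fold. *Gstp1* was at 114 in the WT library and 92.9 in the TG library, a ratio of 0.813, and its near copy *Gstp2* at 12.9 and 13.5, with 25.1% and 46.9% of their words shared. *Gstp3*, which shares none, was at 2.69 (114 reads) and 0.513 (17 reads), 5.24-fold lower (3.13 to 9.30). It passed the filter through the WT library alone. The 3 theta genes were above 1, with *Gstt1* at 69.9 and 94.6, *Gstt2* at 103 and 130 and *Gstt3* at 50.3 and 58.4, although *Gstt3* falls below 1 with equal totals and 13.6% of its exonic bases overlap *Gm20441* on the same strand.
The highest *Gst* ratios belonged to *Gstk1*, the kappa enzyme of mitochondria and peroxisomes, and to *Gstz1*, maleylacetoacetate isomerase of tyrosine breakdown. *Gstk1* (76263) was at 29.0 in the WT library and 54.7 in the TG library, a ratio of 1.89 (1.75 to 2.03), and *Gstz1* (14874) at 197 and 368, a ratio of 1.86 (1.81 to 1.92). On the opposite strand 12.2% of the exonic bases of *Gstz1* are overlapped, in part by *Pomt2*, which was at 32.4 and 32.2. *Gsto1*, of the omega class, was at 66.4 and 49.3, a ratio of 0.741, and *Gsto2* was below the minimum in both libraries. Of the membrane-bound pair, *Mgst1* was at 144 and 95.2, a ratio of 0.661 (0.633 to 0.690), and *Mgst3* at 68.1 and 84.2, a ratio of 1.24 (1.17 to 1.30).

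**Figure D4:**
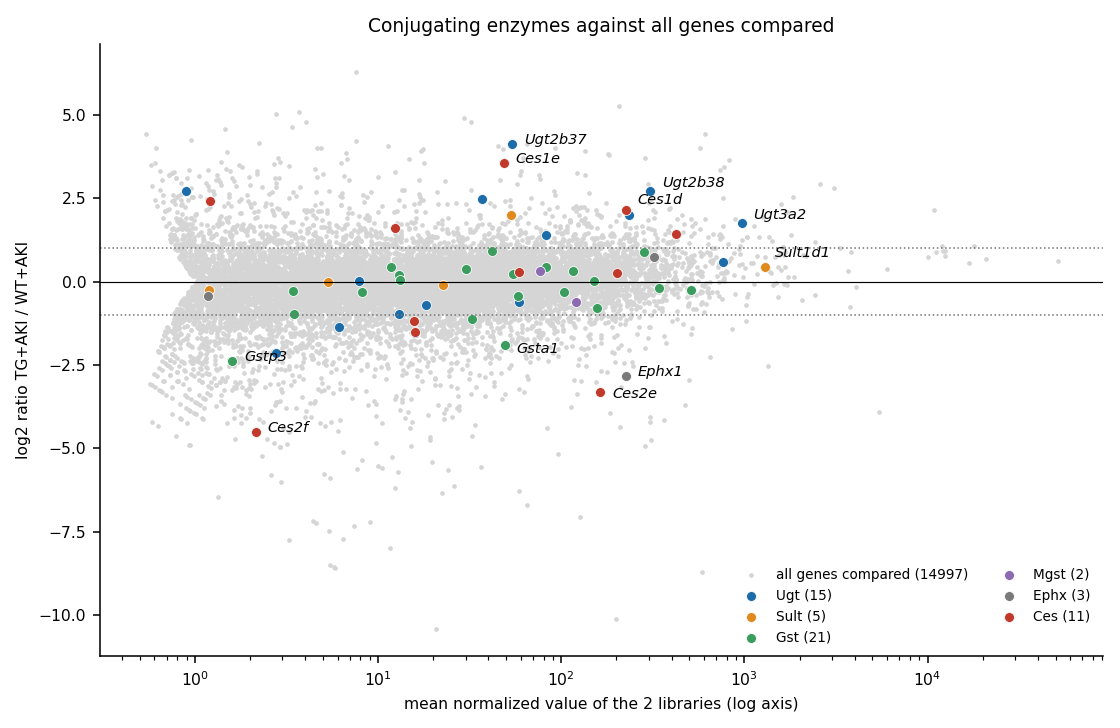
Log2 ratio of TG+AKI to WT+AKI against the mean normalized value of both libraries (log axis) for the 14997 genes compared (grey) and the 57 members compared (coloured by family), with dotted lines at 2-fold. *Ugt2b37* and *Ces1e* lie at the top among members, *Ces2f*, *Ces2e* and *Ephx1* at the bottom, and 18 of the 21 *Gst* genes between the dotted lines.

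Genes that serve the conjugating enzymes were described from lists of pathway genes, in the order of the pathway. The counts of each list are to be read beside 7.35% of all genes higher and 11.0% lower. For glucuronidation, 2 of 8 genes of glucuronate supply and removal were higher and none lower. These were *Miox*, which makes glucuronate from inositol, at 132 and 1342, and *Akr1a1*, which reduces glucuronate, at 843 and 1980. *Miox* also stands among the proximal tubule markers above. *Ugdh*, which makes the donor UDP-glucuronic acid, was within 2-fold, at 227 and 146, a ratio of 0.644 (0.622 to 0.6665). Of the 8 genes, 4 had a ratio above 1 and 4 below. For sulfation, 4 of 9 genes were higher and none lower, namely the sulfate exchanger *Slc26a1* (48.7 and 175), the PAPS synthase *Papss2* (177 and 476), the sulfite oxidase *Suox* (47.2 and 105) and the PAP phosphatase *Bpnt1* (140 and 294). The sulfate transporter *Slc13a1* was within 2-fold, at 789 and 419, a ratio of 0.531 (0.520 to 0.541). The main sulfotransferase, *Sult1d1*, had a ratio of 1.36.

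For glutathione, genes of supply and of later steps were described apart. Of 11 genes of its synthesis and turnover, 2 were higher and 3 lower. *Gclc*, the catalytic subunit of the first and limiting step, was at 752 in the WT library and 285 in the TG library, 2.64-fold lower (2.58 to 2.701), whereas *Cbs* (93.6 and 235) and *Ggct* (10.8 and 26.1) were higher. The mercapturate pathway trims glutathione conjugates and acetylates them for the urine, and 11 of the 17 genes compared (64.7%, beside 7.35% of all genes) were higher and 1 lower, with a median log2 ratio of 1.41. The greatest ratios there were those of *Nat8f6* (9.86 and 82.3), *Nat8f7* (3.61 and 29.9), *Nat8f3* (5.12 and 41.4) and *Nat8f1* (45.2 and 196), relatives of the acetyltransferase *Nat8*. These lie among close copies, and the sharing of their sequence was not measured here. Beside these values, the proximal tubule markers had a median log2 ratio of 1.98, and their part in the result was not tested.

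Enzymes with like tasks outside the families were mostly above 1. Of 9 other conjugating transferases compared, 4 were higher and 1 lower, with *Gnmt* (9.95 and 31.0), the histamine methyltransferase *Hnmt* (10.2 and 23.0) and the glycine conjugating enzyme *Glyat* (235 and 523) among the higher. Of 6 other drug hydrolases, 3 were higher, namely *Cmbl* (57.5 and 189), *Bphl* (98.9 and 221) and *Aadac* (79.3 and 165). Among 9 efflux pumps of drugs and their conjugates, 1 was higher and 2 lower. *Abcc6* was at 7.24 and 22.1, *Abcc3* at 13.9 and 2.20, and *Abcb1b* at 105 and 22.8. The pumps with the highest values, *Abcc2* (647 and 526) and *Abcg2* (423 and 531), were within 2-fold.

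Regulators known to govern these genes were mostly within 2-fold. Of 14 compared, *Hnf4a*, a nuclear receptor of hepatocytes and proximal tubule cells, was higher, at 397 in the WT library and 1072 in the TG library, 2.702-fold (2.65 to 2.75). *Nfe2l2*, which encodes NRF2, the factor that answers oxidative and electrophilic stress, was lower, at 212 and 98.1, 2.16-fold (2.07 to 2.24). Of 13 NRF2 target genes outside the families, 8 (61.5%, beside 11.0% of all genes) were lower and none higher (beside 7.35%), with a median log2 ratio of -1.03. *Gclc*, *Gclm* and *Slc7a11* also stand in the list of glutathione synthesis and turnover. *Gclc* and *Slc7a11* were thus counted as lower in both lists. The largest differences with values of at least 10 were those of *Srxn1* (409 and 77.5), *Hmox1* (170 and 43.3), *Txnrd1* (552 and 178) and *Gclc*. The injured tubule markers moved in the same direction, with 5 of 6 lower and a median log2 ratio of -5.78, and their part was not tested.
Among members, *Ephx1*, *Gsta1*, *Gsta2*, *Gsta3*, *Gsta4*, *Gstm1*, *Gstp1* and *Mgst1* are known to respond to NRF2, a grouping made after their values were seen. Of these 8, *Ephx1*, *Gsta1* and *Gsta4* were lower, beside 11.0% of all genes. The other 5 were within 2-fold, with ratios from 0.661 to 1.004. The grouping is not a full list of such members, and these counts depend on the choice. Outside it, *Gstm2*, *Gstm4* and *Mgst3* had ratios of 1.29, 1.14 and 1.24. Of the 21 *Gst* genes compared, 10 were above 1 and 11 below with the deposited scaling. The antioxidant response element TGACNNNGC, the letters that NRF2 binds, was in the promoter windows of 4 of 52 members (7.69%) beside 14% of all promoters, and these were *Gsta3*, *Gstm5*, *Gstm7* and *Mgst1*. It is shown in capitals for the 2 of these below 1 (chr3:107895796-107895836 and chr6:138140455-138140495, plus strand, *Mgst1* holding the reverse complement).
Gstm5: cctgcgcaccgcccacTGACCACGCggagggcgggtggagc
Mgst1: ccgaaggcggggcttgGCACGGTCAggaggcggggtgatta
The 4 holders had ratios of 1.004, 0.573, 1.36 and 0.661, and no call past 2-fold. Windows of this length do not reach distant elements.

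**Figure D5:**
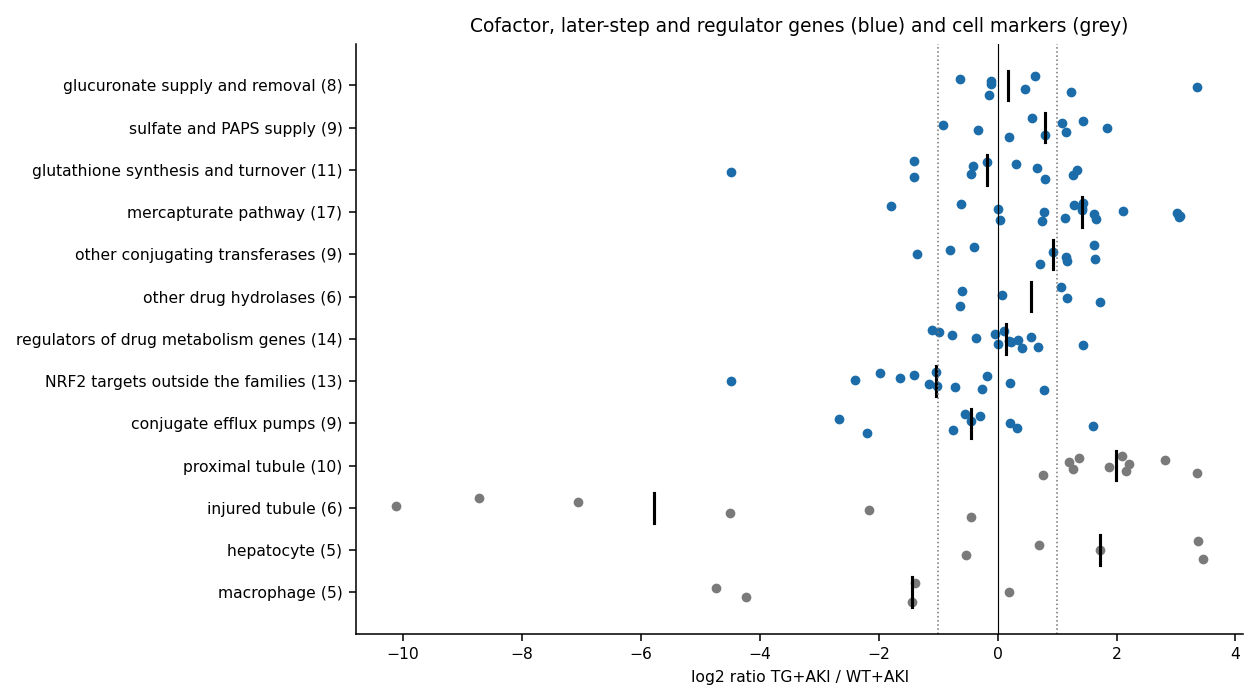
Log2 ratio of TG+AKI to WT+AKI for genes of the 9 pathway lists (blue) and 4 of the marker lists (grey), with a black bar at each list's median, dotted lines at 2-fold and the number of genes compared in brackets. The mercapturate genes lie mostly to the right (median 1.41) and the NRF2 targets to the left (median -1.03), and the proximal tubule and injured tubule markers have medians of 1.98 and -5.78.

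Markers of other cell types that express conjugating enzymes were set beside these values. Hepatocytes hold high levels of most families, and the 6 hepatocyte markers summed to 225 in the WT library and 1560 in the TG library, of which *Cyp2e1* alone was 130 and 1422. *Alb* was at 0.802 and 8.27, 10.3-fold higher (7.21 to 15.2), and *Ttr* at 22.8 and 75.5, 3.31-fold higher (3.07 to 3.56). *Apoa1* was at 0.991 and 0.996, *Apoa2* at 1.75 and 2.84 and *Serpina1a* at 68.8 and 47.8. Of the 5 hepatocyte markers compared, 3 (60%, beside 7.35% of all genes) were higher. *Fabp4* and *Cidec* of the 4 adipocyte markers summed to 55.0 and 37.1, and 3 of 4 T cell markers to 1.01 and 1.57. *Adipoq*, *Plin1* and *Cd3d*, and likewise *Ly6g* of neutrophils and *Cyp11a1*, *Cyp11b1* and *Cyp21a1* of the adrenal cortex, had no row and were not analysed here. The part of other cell types in the members' values was not tested.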

How the data were processed

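Polyadenylated RNA of whole kidney was sequenced in 2 libraries prepared with a stranded TruSeq kit. The submitters' processing notes name build mm10 (GRCm38), STAR 2.7.3a, HTSeq, DESeq2, edgeR, Cufflinks 2.2.1 and FastQC. The annotation, and whether counting used the strand, are not given in the sources used here. The authors deposited 1 normalized signal value per gene and library. All values (100%, tolerance 0.01 reads) were whole multiples of the value of 1 read, so reads were recovered; the scaling factors were 1.10 and 0.909 and matched edgeR's TMM factors. A value of 1 stood for 42.4 reads in WT+AKI and 33.1 in TG+AKI.

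The 14997 genes whose value reached 1 in either library were compared, as ratios without pseudocount, and called at 2-fold. Intervals are exact 95% Clopper-Pearson intervals. An exact binomial test with Benjamini-Hochberg adjustment on the recovered reads called 11011 of the 14997 genes, which compares these libraries and not the genotypes. Levels per kb used the longest GENCODE M21 transcript. Shared 100-base words were taken from all GENCODE M21 transcripts of a member and sought in those of other genes. The RefSeq gene annotation held 19780 of the 19829 gene IDs (99.8%). Promoters are RefSeq windows of GRCm38.p6, which were held for 52 of the 62 members, and 10 members had none. Genes under 1 Mb apart formed a cluster.

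The members and lists were chosen with earlier results of these data known. All 62 members are named, with full values for those of at least 10 in a library or called; from each pathway list at most 4 genes called with a value of at least 10 are named, and markers mainly by sums. *Alb*, *Apoa1*, *Apoa2*, *Cyp2e1*, *Ttr*, *Serpina1a*, *Fabp4*, *Cidec* and the markers without a row are named outside that rule, after their values were seen. So are *Slc13a1*, *Ugdh*, *Gclm*, *Slc7a11*, *Abcc2*, *Abcg2* and the neighbours of members. Alternatives were pseudocount 1, a filter of 10 or none, equal totals, DESeq2 size factors and removal of members that share words. The calling was tested on simulated data. Python 3.11.15, numpy 2.4.6, scipy 1.17.1, pandas 2.3.3, matplotlib 3.10.9, Biopython 1.88, R 4.3.3 and edgeR 4.0.16 were used. Some promoter sequence is not reported here.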

Additional observations from a re-analysis of the deposited data

How the results depend on the processing

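The count of higher members stayed within 1.5 times of 13 under every alternative run. The count of lower members was 7 with a filter of 10 (44 members compared, beside 7.67% of 10294 genes) and 7 without the members that share words (39 compared, 11 higher). The median log2 ratio of the members was -0.255 with equal totals and 0.307 without the members that share words, against 0.03. With equal totals, 3 of 50 members crossed 1 from an interval that excluded it, namely *Ces2c* (log2 -0.0258), *Gstm4* (-0.0818) and *Gstt3* (-0.0585). Of the others, 41 moved and 6 did not. *Gstp2* (-0.215) and *Gsta3* (-0.269), counted among the 41, crossed 1 too, from intervals that include 1. Under DESeq2 size factors none of the 50 moved, and with pseudocount 1 there were 6 that moved without changing sign. Medians that changed sign were those of glucuronate supply (-0.10) and of the regulators (-0.13) with equal totals, those of glutathione synthesis (0.31), *Gst* (0.06) and *Sult* (0.45) with a filter of 10, and that of *Sult* with DESeq2 size factors (0.01, from -0.01). The causes were not tested. Depth limits members under a value of about 1, where 1 library held under 42.4 reads. No paired analysis was possible because each group holds 1 library, and for the same reason no library could be left out.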
